A study of Homo sapiens with 6 samples.

Results

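The genes described here are 10 components of the circadian clock, chosen by name: PER1, PER2, PER3, CRY1, CRY2, NR1D1, NR1D2, DBP, BHLHE40 and BMAL1. All 10 were found among the 58656 gene rows of the table, and all 10 passed the filter on low counts, which left 16481 genes for testing. Their expression was measured by sequencing of polyadenylated RNA from MDA-MB-231, a human breast cancer line of the triple-negative type. One group of 3 libraries came from cells exposed to 5 µM mitocurcumin, a derivative of curcumin directed to mitochondria, for 9 hours. The other group of 3 came from cells exposed to the DMSO vehicle over the same 9 hours, and both groups were grown in DMEM with serum. The labels name the replicates as biological without saying that they were separate cultures, so p-values measure the spread between these libraries. The cells were sampled at 1 time, and the labels give no synchronisation of the cultures, so a change in level and a shift in the phase of a rhythm cannot be told apart.

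The circadian clock of mammalian cells is a feedback loop of transcription. BMAL1 pairs with CLOCK or NPAS2 and activates genes that carry E-boxes, among them the PER and CRY genes, whose proteins gather, return to the nucleus and repress BMAL1 and CLOCK. In an interlocked loop, NR1D1 and NR1D2 (REV-ERB alpha and beta) repress BMAL1 through ROR response elements, where the ROR receptors activate. DBP and its relatives act on D-boxes, which NFIL3 represses, and BHLHE40 competes for E-boxes. Many clock genes also respond acutely to serum, hormones and stress.

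Start-site sequences are shown for the 3 members that passed the test (NR1D2, BMAL1 and PER3) and for PER2, which shares the D-box with NR1D2 and PER3 and did not pass. NR1D2, BMAL1 and PER3 each have 2 windows, and the window shown is the one that held matches. The other window of each of these 3 genes held none. The windows run from 250 bases before an annotated start to 49 after it and come from RefSeq on GRCh38.p14. There are 14 windows for the 10 members, and 4 members have 2 windows. In 10 windows the start site equals the gene start given with the counts. The NR1D2 and BMAL1 windows shown are not among these. The search covered both strands for the E-box CACGTG, the variant E-prime box CACGTT, the D-box TTANGTAA, the cyclic AMP element TGACGTCA, with N as any base, and the ROR element, searched as an A, any 2 bases, a T, any base and then GGTCA. Capitals mark the matches, none of which overlapped another, and each sequence reads 5′ to 3′ on the strand of its gene.
NR1D2, second start, chr3:23945871-23946170, plus strand: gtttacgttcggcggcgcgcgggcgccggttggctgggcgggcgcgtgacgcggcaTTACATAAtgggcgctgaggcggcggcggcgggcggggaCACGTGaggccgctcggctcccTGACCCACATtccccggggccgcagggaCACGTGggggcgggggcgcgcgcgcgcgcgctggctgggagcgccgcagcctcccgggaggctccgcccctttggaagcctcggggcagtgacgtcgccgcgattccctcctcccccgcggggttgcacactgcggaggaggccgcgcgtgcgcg
BMAL1, second start, chr11:13277540-13277839, plus strand: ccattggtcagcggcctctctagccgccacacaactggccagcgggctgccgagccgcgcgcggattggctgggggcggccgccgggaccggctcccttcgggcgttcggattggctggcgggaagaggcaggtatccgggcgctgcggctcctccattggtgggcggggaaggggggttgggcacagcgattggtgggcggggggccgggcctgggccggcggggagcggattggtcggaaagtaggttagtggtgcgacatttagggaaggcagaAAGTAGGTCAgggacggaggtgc
PER3, first start, chr1:7784041-7784340, plus strand: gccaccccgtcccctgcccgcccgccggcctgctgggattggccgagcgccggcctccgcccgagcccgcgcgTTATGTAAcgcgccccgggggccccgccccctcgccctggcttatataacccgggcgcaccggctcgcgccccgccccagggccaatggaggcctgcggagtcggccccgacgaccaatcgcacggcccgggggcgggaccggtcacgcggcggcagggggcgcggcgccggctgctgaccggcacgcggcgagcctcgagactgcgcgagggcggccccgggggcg
PER2, chr2:238288561-238288860, minus strand: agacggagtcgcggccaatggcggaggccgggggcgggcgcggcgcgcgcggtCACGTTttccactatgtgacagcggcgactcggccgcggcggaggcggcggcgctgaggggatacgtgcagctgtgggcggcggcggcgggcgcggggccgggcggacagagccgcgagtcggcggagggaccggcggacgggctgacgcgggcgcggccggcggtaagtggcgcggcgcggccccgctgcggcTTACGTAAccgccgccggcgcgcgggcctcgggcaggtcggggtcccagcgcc

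The NR1D2 window held 2 E-boxes, at -155 and -105 bases from the start, a D-box at -194 and a ROR element at -133 on the opposite strand. The BMAL1 window held a ROR element at 27, just after the start, and the PER3 window a D-box at -177. PER2 held an E-prime box at -197 and a D-box across the start. Among the other members, PER1 had an E-box at -173 and BHLHE40 at -245, and CRY1, CRY2 and NR1D1 each had an E-prime box. DBP had no match, which says only that these letters are not in this window. Of 35116 windows of the same length in the RefSeq table, 7.26% held the E-box, 5.34% the E-prime box, 2.18% the D-box, 2.09% the ROR element and 1.85% the cyclic AMP element, which no member window held. Elements were thus present both in members that changed and in members that did not pass the test. Counts are per gene, so the start in use was not measured.

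**Figure D1:**
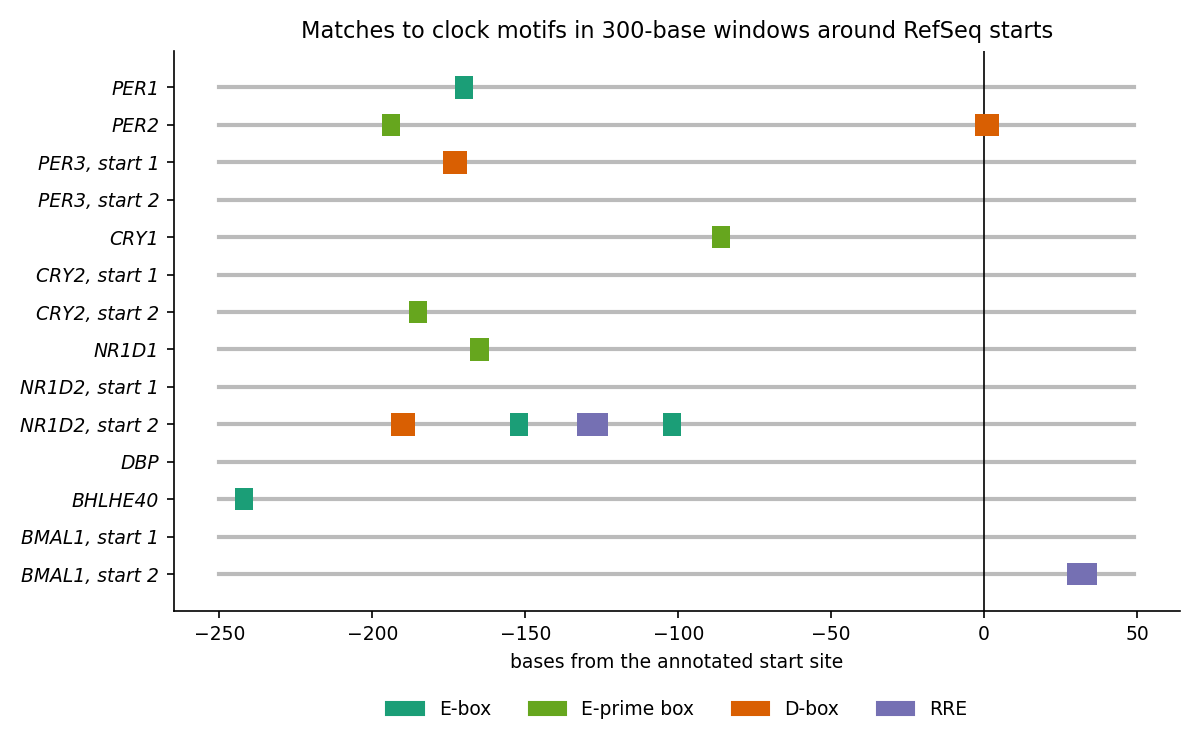
Matches to 4 clock motifs in the 14 start-site windows of the 10 genes, against distance in bases from the annotated start (position 0); coloured boxes are matches on either strand. The second NR1D2 window carries 4 matches, more than any other member window, and 5 of the 14 windows carry none.

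Treated and vehicle libraries were compared to ask which of these transcripts differ after 9 hours of mitocurcumin. Of the 10 clock genes, NR1D2 and BMAL1 rose, PER3 fell, and 7 did not pass the test. The rise of NR1D2 was 1.67-fold and that of BMAL1 1.36-fold, while PER3 went to 0.628 of its vehicle level. The 3 called members make 30% of the list, against 32.5% of all genes tested, so the share of clock genes that changed was near the background. By direction, 14.7% of all genes were higher and 17.8% lower, and the groups did not overlap in 3 of the 10 members against 44.9% of all genes. The median change of the members on the log2 scale was 0.08, and that of all tested genes -0.01.

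**Figure D2:**
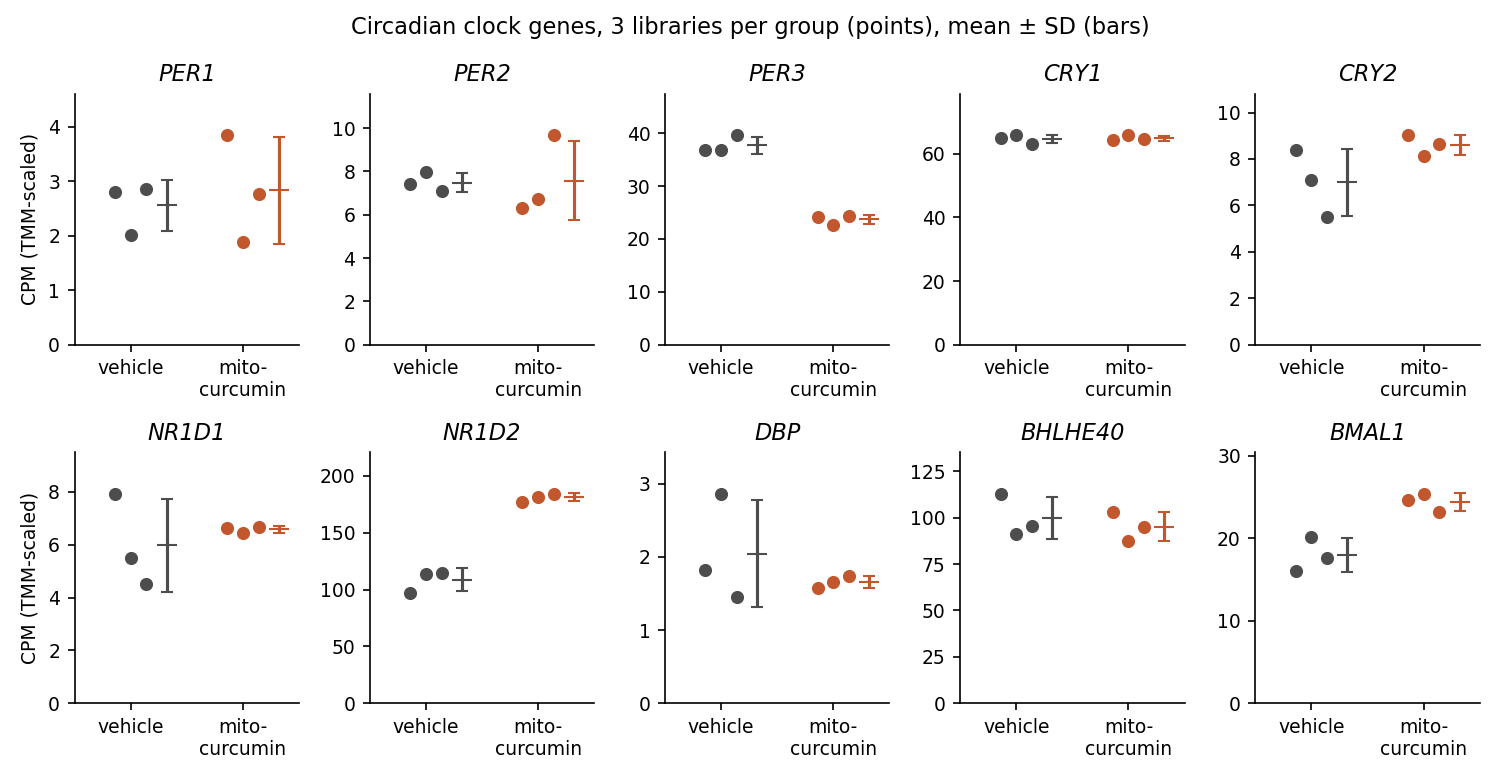
Level of each of the 10 clock genes in CPM (vertical axis, from 0) in the vehicle and mitocurcumin libraries; points are libraries, bars the mean ± SD of 3. The groups separate for PER3, NR1D2 and BMAL1 and overlap for the other 7 genes.

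Among the activators, BMAL1 (Entrez 406, chromosome 11, 13276652 to 13387266 on GRCh38) is a partner of CLOCK. Its level was 16.02, 20.2 and 17.6 CPM (counts scaled to the library total) in the vehicle libraries and 24.6, 25.4 and 23.2 CPM in the mitocurcumin libraries. Every treated library lay above every vehicle library. The mean went from 17.9 ± 2.10 to 24.4 ± 1.09 CPM (SD, n = 3), a log2 change of 0.44 ± 0.10 (SE; edgeR adjusted p = 0.00372). The partners of BMAL1 went the other way. CLOCK fell from 188 ± 9.79 to 152 ± 5.59 CPM, by 0.30 ± 0.06 on the log2 scale (edgeR adjusted p = 5.7e-04). NPAS2, which can take the place of CLOCK, changed by -0.43 ± 0.08 (edgeR adjusted p = 3.4e-04). BMAL2, the paralog of BMAL1, did not pass the test, at 0.12 ± 0.06 (edgeR adjusted p = 0.175).

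Among the repressors of BMAL1 transcription, NR1D2 (Entrez 9975, chromosome 3, 23945286 to 23980617) gave the largest change of any member. The vehicle libraries held 97.3, 114 and 115 CPM and the mitocurcumin libraries 177, 182 and 184 CPM. The lowest treated library stood well above the highest vehicle library, and the 3 treated libraries lay close together. The means were 109 ± 9.91 and 181 ± 3.47 CPM, a log2 change of 0.74 ± 0.06 (edgeR adjusted p = 2.1e-07). NR1D2 overlaps NKIRAS1 on the opposite strand over 1277 bases, and NKIRAS1 did not pass the test, at 0.01 ± 0.07.

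NR1D1 (Entrez 9572, chromosome 17, 40092793 to 40100589), the paralog of NR1D2, was present at 7.92, 5.49 and 4.52 CPM in vehicle and at 6.63, 6.44 and 6.69 CPM after mitocurcumin. The treated values fell inside the range of the vehicle values. Its log2 change of 0.14 ± 0.18 did not pass the test (edgeR adjusted p = 0.612), and the 95% interval of its fold ran from 0.841 to 1.44. NR1D1 overlaps THRA, the thyroid hormone receptor alpha gene, over 1075 bases on the opposite strand, and THRA was lower, at -0.65 ± 0.11 on the log2 scale (edgeR adjusted p = 2.99e-04). The kit keeps strand, but whether the counting used it is not given in the sources used here, and the part of shared reads in the NR1D1 value was not tested.

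Of the receptors that activate through the same elements, RORA did not pass the test at -0.13 ± 0.13, nor did RORB at -0.25 ± 0.24. Without control replicate 2 they were at -0.028 and -0.036.

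The period genes encode proteins of the repressor complex. PER3 (Entrez 8863, chromosome 1, 7784291 to 7845177) was measured at 36.8, 36.9 and 39.6 CPM in vehicle and at 24.2, 22.6 and 24.2 CPM after mitocurcumin. All 3 treated libraries were below all 3 vehicle libraries, with little spread in either group. Its mean went from 37.7 ± 1.60 to 23.7 ± 0.913 CPM, a log2 change of -0.67 ± 0.08 (edgeR adjusted p = 1.3e-05).

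PER2 (Entrez 8864, chromosome 2, 238244044 to 238288610) stood at 7.42, 7.97 and 7.08 CPM in vehicle and at 6.31, 6.73 and 9.66 CPM after mitocurcumin. Mitocurcumin replicate 3 was above every vehicle library and the other treated libraries were below them. The log2 change was 0.02 ± 0.17 (edgeR adjusted p = 0.941) and the 95% interval of the fold 0.796 to 1.29. MALAT1, a nuclear noncoding RNA, was also highest in mitocurcumin replicate 3, at 5319 CPM against 3341 and 3096 CPM in the other treated libraries. Its part in the PER2 value was not tested.

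PER1 (Entrez 5187, chromosome 17, 8140472 to 8152404) gave 66, 52 and 67 counts in the vehicle libraries and 95, 44 and 80 in the treated ones. These were 2.80, 2.01 and 2.86 CPM against 3.84, 1.88 and 2.77 CPM, and both the highest and the lowest library were treated ones. Its log2 change of 0.15 ± 0.26 did not pass the test (edgeR adjusted p = 0.704). The 95% interval of the fold, from 0.758 to 1.63, is wide, and counting error is about 12.2% per library at this depth.

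The cryptochromes bind the period proteins and block CLOCK and BMAL1 directly. CRY1 (Entrez 1407, chromosome 12, 106991364 to 107093549) was the steadiest member, at 65.1, 65.8 and 63.2 CPM in vehicle and 64.2, 65.8 and 64.6 CPM after mitocurcumin. Its groups lay within the same narrow range. The log2 change was 0.00 ± 0.06 (edgeR adjusted p = 0.972), with a 95% interval of the fold from 0.916 to 1.10.

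CRY2 (Entrez 1408, chromosome 11, 45847118 to 45883244) was at 8.39, 7.08 and 5.50 CPM in vehicle and at 9.02, 8.14 and 8.66 CPM after mitocurcumin. The highest vehicle library reached into the treated range. The log2 change of 0.30 ± 0.16 did not pass the test (edgeR adjusted p = 0.164), and the 95% interval of the fold was 0.978 to 1.55. Without control replicate 1, which held the highest vehicle value, the change was 0.45 and passed (edgeR adjusted p = 0.0176), while over 17 alternatives, other tools included, the adjusted p ran from 0.0176 to 0.458. The highest came without control replicate 3, which held the lowest vehicle value, where the change was 0.17.

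DBP (Entrez 1628, chromosome 19, 48630030 to 48637379), an activator of D-box genes and a direct output of the clock, had 43, 74 and 34 counts in vehicle and 39, 39 and 50 after mitocurcumin. In CPM these were 1.82, 2.86 and 1.45 against 1.58, 1.66 and 1.73, so that control replicate 2 was the highest of all 6. The log2 change was -0.31 ± 0.28 (edgeR adjusted p = 0.444), with a 95% interval of the fold from 0.535 to 1.22. A change of the size seen in PER3 lies within that interval. DBP overlaps SPHK2 over 376 bases on the opposite strand, and SPHK2 did not pass the test at -0.08 ± 0.20.

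The relatives of DBP and their antagonist bind the same kind of element. TEF, a bZIP factor that binds the same D-boxes, rose from 4.25 ± 0.589 to 8.38 ± 0.428 CPM, a log2 change of 0.98 ± 0.16 (edgeR adjusted p = 1.2e-04). NFIL3, the D-box repressor, rose from 38.8 ± 5.32 to 53.5 ± 3.37 CPM, a log2 change of 0.46 ± 0.09 (edgeR adjusted p = 0.00110). HLF, the other relative, was at 0.0773 to 0.171 CPM in vehicle and 0.256 to 0.450 CPM after mitocurcumin, and was too low to be tested.

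BHLHE40 (Entrez 8553, chromosome 3, 4979437 to 4985323), a repressor also known as DEC1 that is induced by many stimuli, was at 113, 91.5 and 95.4 CPM in vehicle and 103, 87.6 and 94.8 CPM after mitocurcumin. The groups overlapped over most of their range. The log2 change was -0.07 ± 0.08 (edgeR adjusted p = 0.553) and the 95% interval of the fold 0.848 to 1.07. The antisense gene BHLHE40-AS1 shares 525 bases with it and did not pass the test, at -0.89 ± 0.39 (edgeR adjusted p = 0.0932). BHLHE41, its paralog, was lower at 12.04 ± 0.617 CPM against 15.1 ± 0.956 CPM in vehicle, a change of -0.33 ± 0.11 (edgeR adjusted p = 0.0312). The call of BHLHE41 was lost without control replicate 2 or 3, and without any of the 3 treated libraries, at edgeR adjusted p-values of 0.0506 to 0.133.

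**Figure D3:**
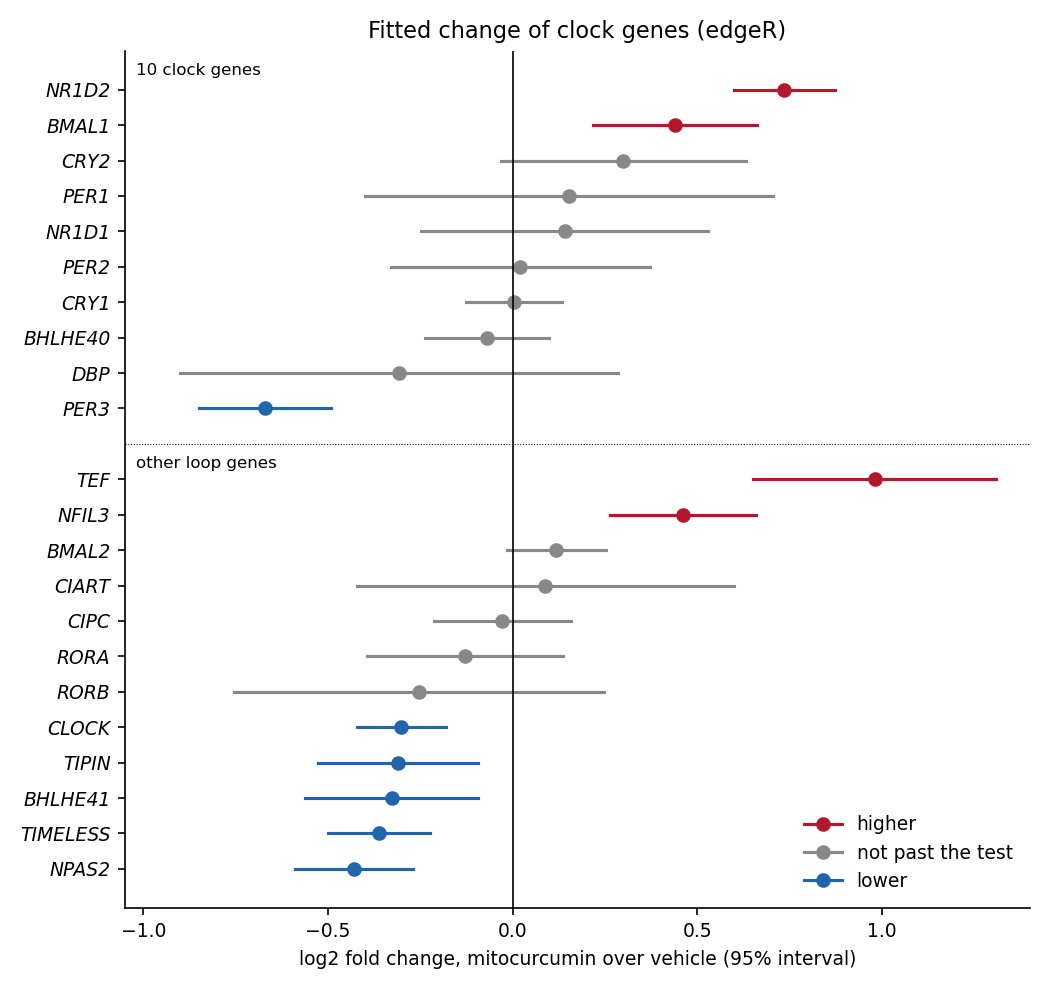
Log2 fold change of mitocurcumin over vehicle (horizontal axis) with its 95% interval from edgeR, for the 10 clock genes above the dotted line and 12 other loop genes below it; colour shows genes higher, lower or not past the test. NR1D2, BMAL1, TEF and NFIL3 lie to the right of 0, and PER3, CLOCK, NPAS2, BHLHE41, TIMELESS and TIPIN to the left.

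To ask whether paralogs changed by the same amount, their ratio was taken within each library, where it does not depend on scaling. The log2 ratio of NR1D1 to NR1D2 was -3.62, -4.37 and -4.67 in vehicle and -4.74, -4.82 and -4.78 after mitocurcumin. Every treated ratio was below every vehicle ratio, and the mean difference was -0.56. It was -0.26 without control replicate 1, which held the highest ratio. The log2 ratio of PER2 to PER3 was -2.31, -2.21 and -2.48 in vehicle and -1.94, -1.75 and -1.33 after mitocurcumin. The groups again did not overlap, and the difference was 0.66. It was 0.49 without mitocurcumin replicate 3, which held the highest ratio. With all 6 libraries, both ratios had a two-sided exact permutation p of 0.1, the smallest that 3 libraries against 3 allow. Adjusted over the 4 ratios, this exact permutation p was 0.2 for both. The differences for CRY1 to CRY2 and PER1 to PER2 were -0.32 and 0.11, with exact permutation p-values of 0.2 and 0.8. Without control replicate 3 the CRY1 to CRY2 difference was -0.17.

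**Figure D4:**
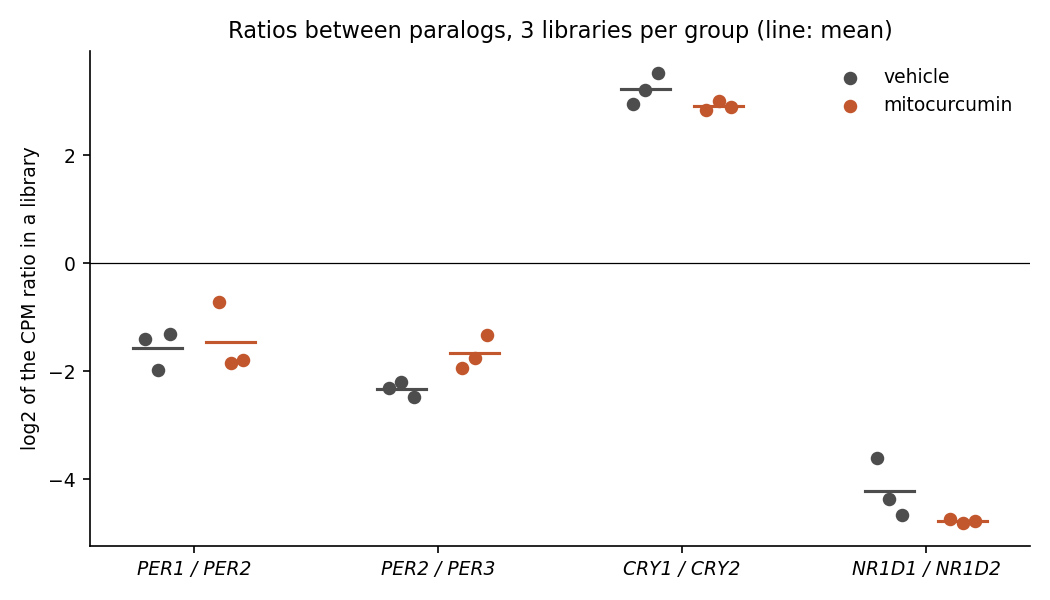
Log2 of the ratio of CPM between paralogs in each library (vertical axis); points are libraries, lines the mean of 3. The vehicle and mitocurcumin points separate for PER2 / PER3 and NR1D1 / NR1D2 and overlap for PER1 / PER2 and CRY1 / CRY2.

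Levels were compared between genes as CPM per kilobase of exon, with lengths from GENCODE 29. In vehicle the order was BHLHE40 at 28.8 ± 3.28, NR1D2 at 20.7 ± 1.88, CRY1 at 19.8 ± 0.411, BMAL1 at 5.93 ± 0.694 and PER3 at 5.82 ± 0.247 CPM per kilobase. It went on with NR1D1 at 2.16 ± 0.632, CRY2 at 1.60 ± 0.331, PER2 at 1.17 ± 0.0699, DBP at 0.711 ± 0.254 and PER1 at 0.468 ± 0.0866. The ranges of NR1D2 and CRY1 overlapped, as did those of BMAL1 and PER3, of NR1D1 and CRY2, and of DBP and PER1. After mitocurcumin, NR1D2 was the highest member at 34.4 ± 0.659, above BHLHE40 at 27.4 ± 2.22, with ranges that did not overlap. BMAL1, at 8.05 ± 0.360, then stood above PER3, at 3.65 ± 0.141 CPM per kilobase, also without overlap.

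Of 62 other clock genes listed by role, 58 were tested, of which 14 were higher and 14 lower. That is 48.3% against the background of 32.5%, and the median log2 change was 0.01. Upper quartile scaling gave 18 higher and 11 lower, as did a filter on a mean CPM of at least 1. The number lower was 9 without control replicate 2 or 3 and 8 without mitocurcumin replicate 1 or 2. The list was drawn up with earlier results of these data known and supports no statement about the clock as a whole. In the loops themselves 12 of 14 genes were tested, with 2 higher (TEF and NFIL3) and 5 lower (CLOCK, NPAS2, BHLHE41, TIMELESS and TIPIN). TIMELESS and TIPIN form a complex that also works at replication forks, and changed by -0.36 ± 0.07 and -0.31 ± 0.10 (edgeR adjusted p = 3.9e-04 and 0.0276). The call of TIPIN was lost without control replicate 2 or 3, and without any of the 3 treated libraries, at edgeR adjusted p-values of 0.0628 to 0.134. CIART and CIPC, both repressors of CLOCK and BMAL1, did not pass the test at 0.09 ± 0.24 and -0.03 ± 0.09.

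Of 15 tested kinases and ubiquitin system genes that set the stability of the clock proteins, 4 were higher and 2 lower, or 40% called against 32.5% of all genes. CSNK1A1, a casein kinase, rose by 0.57 ± 0.05 (edgeR adjusted p = 2.5e-07), and CSNK2A1, FBXW7 and HUWE1 were the other higher genes. GSK3A and PRKAA1, the latter a catalytic subunit of AMP-activated kinase, changed by -0.42 ± 0.09 and -0.38 ± 0.05. The period kinases CSNK1D and CSNK1E did not pass the test, at -0.10 ± 0.07 and 0.11 ± 0.09.

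Of 13 cofactors, 3 were higher (RACK1, NCOR1 and KDM5A) and 3 lower (SFPQ, PARP1 and THRAP3), or 46.2% called against the same 32.5%. THRAP3 was near the threshold (edgeR adjusted p = 0.0433), and its groups overlapped. NCOR1, the corepressor that the REV-ERB receptors recruit, rose by 0.35 ± 0.05 (edgeR adjusted p = 6.3e-05), and RACK1, a scaffold protein, by 0.36 ± 0.06. SFPQ, an RNA-binding protein, changed by -0.44 ± 0.07. Its partner NONO did not pass the test at -0.13 ± 0.06, and neither did HDAC3, the deacetylase of the NCOR1 complex, at -0.15 ± 0.08.

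Of 8 genes of the cyclic AMP input, which induces PER1, 2 (25%, against 32.5% of all genes) were called, SIK1 and CRTC1. SIK1, a kinase that restrains CREB coactivators, rose by 0.79 ± 0.11 (edgeR adjusted p = 2.1e-05). CRTC1, such a coactivator, changed by -0.61 ± 0.14 (edgeR adjusted p = 0.00328). Without control replicate 1, which held its highest value, the CRTC1 change was -0.41. Of 10 tested output genes, 4 were higher and 3 lower, or 70% against 32.5%. NAMPT, the rate-limiting enzyme of NAD salvage, rose from 867 ± 57.8 to 2098 ± 56.9 CPM, a log2 change of 1.27 ± 0.06 (edgeR adjusted p = 7.5e-11). TSC22D3, the glucocorticoid-induced leucine zipper, rose by 1.59 ± 0.14, and KLF9 by 0.48 ± 0.08. The lower outputs were KLF10, POR and WEE1, at -0.19, -0.27 and -0.16 (edgeR adjusted p = 0.0116, 0.0449 and 0.0488). POR and WEE1 thus lay just under the threshold. Many of these outputs also answer to signals outside the clock.

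The libraries held 23146822 to 29104681 counts each. The markers chosen for the line were present, with VIM at 2150 to 2189 CPM in vehicle, and ESR1 and PGR, the receptors that such tumours lack, were at or under 0.348 CPM in every library. Of the 5 markers chosen as present, EGFR and ANXA1 were higher after mitocurcumin, at 0.28 ± 0.06 and 0.33 ± 0.05 on the log2 scale. The other 3 did not pass the test. ERBB2 was at 30.3 to 48.6 CPM and CDH1, the epithelial cadherin, at 1.19 to 3.15 CPM over the 6 libraries. ERBB2 was lower after mitocurcumin, at -0.35 ± 0.10 (edgeR adjusted p = 0.0150), and CDH1 did not pass the test. Of 6 fibroblast markers 4 were tested and COL1A2 was lower, with a summed level of 24.5 to 31.1 CPM in vehicle and 18.6 to 22.8 CPM after mitocurcumin. Of 6 blood and endothelial markers 3 were tested and PECAM1 was lower, with sums of 14.8 to 19.7 CPM and 8.73 to 9.76 CPM. No marker was at 0 in all 6 libraries, though CD3E and CDH5 did not pass 0.0852 CPM in any. Of 4 nuclear RNAs, NEAT1 was higher, and the summed levels overlapped, at 4532 to 5431 and 4895 to 7380 CPM. The part of these shifts in the clock gene values was not tested. In bulk RNA, fewer cells with a transcript and less of it per cell cannot be told apart.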

How the data were processed

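RNA was prepared with Trizol, and stranded poly(A) libraries were made with a KAPA kit, per the labels' protocols. Reads were assigned to RefSeq genes, per the file headers, on GRCh38, per the submitters' processing notes. The aligner and counting tool are not given in the sources used here. Per gene, the authors deposited estimated counts (20.1% to 21.4% of values above 0 were whole) and log2 normalized values. Tested on the files, each deposited log2 value was the log2 of the estimated count divided by 1 factor per library, with 0 listed for lower values.

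Estimated counts were rounded, as the design had assumed whole counts, then tested with edgeR 4.0.16 (R 4.3.3): filterByExpr (minimum count 10, minimum total 15), TMM scaling, robust quasi-likelihood F-test, group as the only term. P-values are two-sided and Benjamini-Hochberg adjusted over 16481 genes, with a threshold of 0.05. CPM uses TMM-scaled totals of tested genes. SE is the coefficient over the square root of F, and 95% intervals use its degrees of freedom. The common biological coefficient of variation was 8.43%. Counting error covers sampling of reads only.

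The members and lists were chosen with earlier results of these data known. All 10 members, the loop genes, and the 3 called genes with the largest change in each other list (mean CPM of at least 1) were named. Genes that only spell out a count or fill in a role were named after their values were seen, and a few genes of the lists are counted but not reported here by name. In 1 simulation of this comparison on 16252 genes, the test recovered 74% of 100 genes changed 1.5-fold and 91% of 100 changed 2-fold, with 12 false among 177 calls. Only those genes were changed, all at a mean CPM of at least 1, whereas 32.5% of genes were called in the data. The recovery shares therefore need not hold for the data. Alternatives were other scalings and filters, DESeq2 1.42.0, limma 3.58.1 (voom, and on the deposited log2 values), unrounded counts, a replicate block, a stricter threshold and each library left out.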

Additional observations from a re-analysis of the deposited data

How the results depend on the processing

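The calls of NR1D2, BMAL1 and PER3 held under all 17 alternatives, with log2 changes of 0.66 to 0.79, 0.37 to 0.54 and -0.69 to -0.62. Leaving out each library gave 2 to 3 higher and 1 lower clock genes. Over all genes it gave 1850 to 2872 higher and 2165 to 3216 lower, the highest without control replicate 1. Lower genes among the other clock genes numbered 8 at an adjusted p under 0.01, and 8 to 13 with a library left out, against 14. With all 6 libraries they numbered 11 under scaling by DESeq2 size factors or by upper quartile. Higher ones numbered 13 to 16 with a library left out. The causes of these differences were not tested.

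Only values that did not pass the test changed sign, and the causes were not tested. By limma on the deposited log2 values PER2 was -0.015 and CRY1 -0.00018, and with the replicate block PER2 was -0.00048. With a library left out, PER1 ran from -0.11 to 0.38, PER2 from -0.20 to 0.15, CRY1 from -5.9e-05 to 0.024, NR1D1 from -0.0098 to 0.39, DBP from -0.49 to 0.026 and BHLHE40 from -0.12 to 0.027. In the same way CIART ran from -0.084 to 0.28 and CIPC from -0.062 to 0.016, and the difference in the log2 ratio of PER1 to PER2 from -0.26 to 0.31.

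Same-numbered libraries shared little: their deviations from the group means correlated at 0.101, 0.017 and -0.0101 over 16481 genes, and 1 of 3 control libraries correlated best with its own number. With the replicate block, 2643 genes were higher and 3163 lower, the same 3 clock genes were called, and 16 and 13 of the other clock genes. Counting error per library was largest among the members for PER1 and DBP, at 12.2% and 14.7%.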

Other observations

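The genes whose levels ran most like the extreme members were found by the root mean square distance between log2 CPM profiles over the 6 libraries, each centred on its own mean, among 11163 other genes at a mean CPM of at least 5. For NR1D2 they were CLIC4, CHD2, TSEN15, the pseudogene row LOC389765 and NEDD4, at distances of 0.0442 to 0.0546. For PER3 they were ZMAT3, TGFB2, DUSP6, PKD2 and WDR76, at 0.0258 to 0.0354. Profiles over 6 libraries in 2 groups are set mostly by the size of the change, so these lists describe genes with a like change.

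The spread between libraries is given here for members at different levels. NR1D1 had an SD of 1.75 CPM in vehicle and 0.131 CPM after mitocurcumin, and DBP 0.731 and 0.0778 CPM. PER2 and PER1 went the other way, PER2 with 0.446 and 1.83 CPM and PER1 with 0.473 and 0.984 CPM. For PER3, CRY2, NR1D2, BHLHE40 and BMAL1 the SD was also smaller after mitocurcumin. The SD of CRY1 was 1.34 CPM in vehicle and 0.843 CPM after mitocurcumin, at a mean near 65 CPM in both. With 3 libraries a group, no difference in spread was tested.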
